A study of Mus musculus with 6 samples.

Results

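The genes described here encode the integrin subunits and a set of proteins of focal adhesions, the sites where integrins join the extracellular matrix to actin filaments. They were taken by name alone: the protein-coding genes named Itga with a number, Itgav, Itga2b or Itgb with a number, together with Tln1, Tln2, Vcl, Ptk2, Pxn, Ilk, Parva, Lims1, Fermt2, Zyx, Flna, Actn1, Actn4, Tns1 and Bcar1. Of the 54532 genes in the count table, 36 met the rule, of which 13 encode alpha subunits, 8 beta subunits and 15 focal adhesion proteins. RNA was sequenced from cultured aortic cells of wild-type male mice, labelled as endothelial cells. Lipopolysaccharide (LPS), a molecule of the bacterial envelope sensed through Tlr4, was given to 3 cultures at 500 ng/mL for 8 h, and 3 Vehicle cultures were kept in starvation medium for the same time. Each of 3 cell isolations gave 1 LPS and 1 Vehicle culture, and the number of a library (LPS 1, Vehicle 1) is that of its isolation. The number of animals behind an isolation is not given in the labels. Setting LPS against Vehicle asks which of these genes respond to LPS.

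An integrin is a pair of 1 alpha and 1 beta subunit that spans the membrane and binds matrix proteins outside the cell. The alpha subunit largely sets the ligand: Itga5, Itgav and Itga8 bind proteins with the RGD peptide such as fibronectin and vitronectin, Itga1, Itga2, Itga10 and Itga11 bind collagens, and Itga3, Itga6 and Itga7 bind laminins. Talins and kindlins bind the tail of the beta subunit and switch the receptor on, vinculin, alpha-actinins and filamin couple it to actin, and focal adhesion kinase, paxillin and p130Cas carry signals from it. In endothelium and in the cells of the vessel wall, these contacts hold cells to the basement membrane and sense tension and flow.

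Library totals ran from 16509197 to 21149988 counts under LPS and from 17294955 to 25082714 in Vehicle, so that 3 counts, the limit that a count of 0 allows, were 0.117 to 0.188 CPM (counts relative to the scaled library size); such limits cover counting error only. The marker genes did not match the labelled cell type. Of 11 endothelial markers, 9 were below 1 CPM in every library, with a highest value of 0.730 CPM, and Cldn5 was at 0 in all 6 libraries; Eng and Erg alone were above that. Their summed level was 279 to 289 CPM under LPS and 295 to 296 CPM in Vehicle, nearly all of it Eng. The 6 pericyte markers, all detected, summed to 1374 to 1641 CPM under LPS and 1852 to 1962 CPM in Vehicle, and 2 of them (Pdgfrb and Cspg4) were called lower, 0 with the offset for transcript length described below. The 6 fibroblast markers, also all detected, summed to 2046 to 2906 CPM under LPS and 3483 to 3972 CPM in Vehicle, with 2 called higher and 2 lower (2 and 1 with the offset). Most of that sum was Col1a1 (mean 2004 CPM under LPS and 2920 CPM in Vehicle). Col1a1 and Pdgfra were called lower, Pdgfra also with the offset. The less abundant Dcn and Pi16 were called higher in both fits, so these markers did not move together. Smooth muscle markers summed to 464 to 583 CPM under LPS and 415 to 433 CPM in Vehicle, with Smtn called higher (log2 fold change 0.50, edgeR adjusted p = 0.00569). The 7 epithelial and mesothelial markers summed to 43.9 to 90.3 CPM under LPS and 25.8 to 31.9 CPM in Vehicle, with Krt19 called higher (1.27, adjusted p = 0.00193). The 8 leukocyte markers summed to 7.56 to 8.51 CPM under LPS and 5.36 to 6.35 CPM in Vehicle, and Ptprc and Adgre1 were at 0 in all libraries. Among them S100a8 had 13, 14 and 33 counts in LPS 1, 2 and 3 (0.614 to 1.66 CPM). In Vehicle it had 3, 1 and 0 counts (0.0 to 0.168 CPM). It was called higher (edgeR adjusted p = 0.00357), but had enough counts to be tested in its LPS libraries alone. Of the endothelial markers Erg was called lower (−0.60, edgeR adjusted p = 0.0205). The calls of Smtn, Krt19, S100a8 and Erg were also made with the offset. Shares of all genes called are 24.9% higher and 24.4% lower without the offset, and 21.8% and 13.8% with it. The part of these markers in the changes below was not tested. As these are bulk samples, fewer cells of a type and less RNA per cell cannot be told apart.

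Promoters are shown for the gene with the largest fall (Vcl), for Zyx, which rose, and for Itgb1, the most abundant beta subunit. RefSeq (GRCm38.p6) held 33 promoters of 27 of the 36 genes, and the 250 bases before each start were searched on both strands. Capitals mark matches to the CArG box, the site of serum response factor, to GGAATG, the core of TEAD sites, or to the AP-1 site TGANTCA. Vinculin is encoded on the plus strand, and the first block of capitals is the CArG box, 227 bases before the start, the other GGAATG at 143 bases (chr14:20929148-20929397).
Vcl: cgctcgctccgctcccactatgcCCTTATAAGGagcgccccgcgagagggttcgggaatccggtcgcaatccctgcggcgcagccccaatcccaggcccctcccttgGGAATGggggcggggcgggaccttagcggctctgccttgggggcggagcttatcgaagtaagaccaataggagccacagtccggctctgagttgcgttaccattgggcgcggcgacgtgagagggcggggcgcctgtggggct
The promoter of Zyx, also on the plus strand, held the AP-1 site 121 bases before the RefSeq start (chr6:42349578-42349827). In the deposited counts Zyx starts at 42349630, so the site lies inside the gene as counted there.
Zyx: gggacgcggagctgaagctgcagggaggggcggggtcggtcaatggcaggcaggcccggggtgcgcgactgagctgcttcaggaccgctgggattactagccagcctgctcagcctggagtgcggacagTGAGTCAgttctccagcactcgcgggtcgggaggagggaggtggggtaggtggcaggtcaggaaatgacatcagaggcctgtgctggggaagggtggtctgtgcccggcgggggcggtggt
In the promoter of Itgb1, on the plus strand, GGAATG lay 7 bases before the start (chr8:128685404-128685653).
Itgb1: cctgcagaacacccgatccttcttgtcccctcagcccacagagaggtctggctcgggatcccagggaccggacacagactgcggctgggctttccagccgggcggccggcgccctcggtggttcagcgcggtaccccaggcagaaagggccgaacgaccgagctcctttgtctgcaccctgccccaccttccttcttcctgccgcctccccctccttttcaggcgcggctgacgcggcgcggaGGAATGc

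Among the 33 promoters of the genes of interest, the CArG box was found in 3, of Vcl, Fermt2 and Itgb6 (1.47% of all 32851 promoters hold it). The kappa B site of nuclear factor kappa B was found in 2 of the 33, of Flna and Ilk (3.90% of all promoters). TGANTCA was found in 2, of Zyx and Actn4 (6.75%), and GGAATG in 5, of Vcl, Itgb1, Actn4, Flna and Itga10 (12.6%). In Flna the kappa B site and GGAATG share bases. As in Zyx, the matches of Flna, Ilk and Itgb6 lie inside the gene as counted. Ilk and Itgb6 each have another RefSeq promoter, which held no match. Of the genes with a match, Vcl, Itgb1 and Flna were called lower under LPS, Flna only without the offset for transcript length. Zyx was called higher, and Fermt2, Itga10, Actn4 and Ilk were not called. Itgb6 had too few counts to be tested. The part of these sites in the changes was not tested.

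Of the 36 genes, 34 had enough counts to be tested; Itgb2 and Itgb6 did not. Under LPS 2 were called higher (Zyx, and Itgb7, which passed the filter on low counts through its LPS libraries alone), 15 were called lower and 17 were not called, at adjusted p below 0.05 in edgeR's quasi-likelihood F-test with Benjamini-Hochberg adjustment over all genes. That is 5.88% and 44.1% of the 34, against 24.9% and 24.4% of all 14508 genes tested. The median log2 fold change, LPS over Vehicle, was −0.34 over the 34 genes, against −0.0031 over all genes. The integrin subunits had 1 higher and 8 lower of 19 tested, and the focal adhesion genes 1 higher and 7 lower of 15. Values of the 3 LPS libraries lay below all 3 Vehicle values for 18 of the 34 genes and above them for 3 (30.8% and 31.1% of all genes).

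Transcript length moved with the group across the whole table. For each library, the log2 level of a gene was set against its mean over the Vehicle libraries, other than the library itself. This deviation changed by −0.193, −0.318 and −0.364 per doubling of length in LPS 1, 2 and 3. In Vehicle 1, 2 and 3 it changed by 0.0099, 0.029 and −0.039. The 34 genes are long, with a median longest transcript of 4915 bases against 3197 over all tested genes. An edgeR fit with an offset for transcript length called 7 of the 34 higher and 5 lower (20.6% and 14.7%), close to its shares over all genes of 21.8% and 13.8%. Their median log2 fold change was then 0.01, against 0.04 over all genes. Vcl, Itgb8, Itga6, Lims1 and Itgb1 were called lower in both fits, and Zyx higher in both, as was Itgb7 on its few counts. A further 10 were lower only without the offset, 5 were higher only with it, and 0 were called in opposite directions. The part of transcript length in the changes was not tested beyond these fits.

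Other settings of the fit gave the following calls among these genes. With an offset for the deposited gene length 8 were higher and 6 lower (23.9% and 16.1% of all genes), and with the isolation as a block 3 were higher and 15 lower (25.5% each of all genes). The block together with the transcript length offset called 8 higher and 5 lower (23.9% and 15.6% of all genes). A stricter filter, which removed Itgb7, called 1 higher (Zyx) and 15 lower (27.4% and 26.5% of the genes kept). A threshold of 0.01 called 1 higher (Itgb7, on its few counts, but not Zyx) and 12 lower (15.9% and 15.3%).

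**Figure D1:**
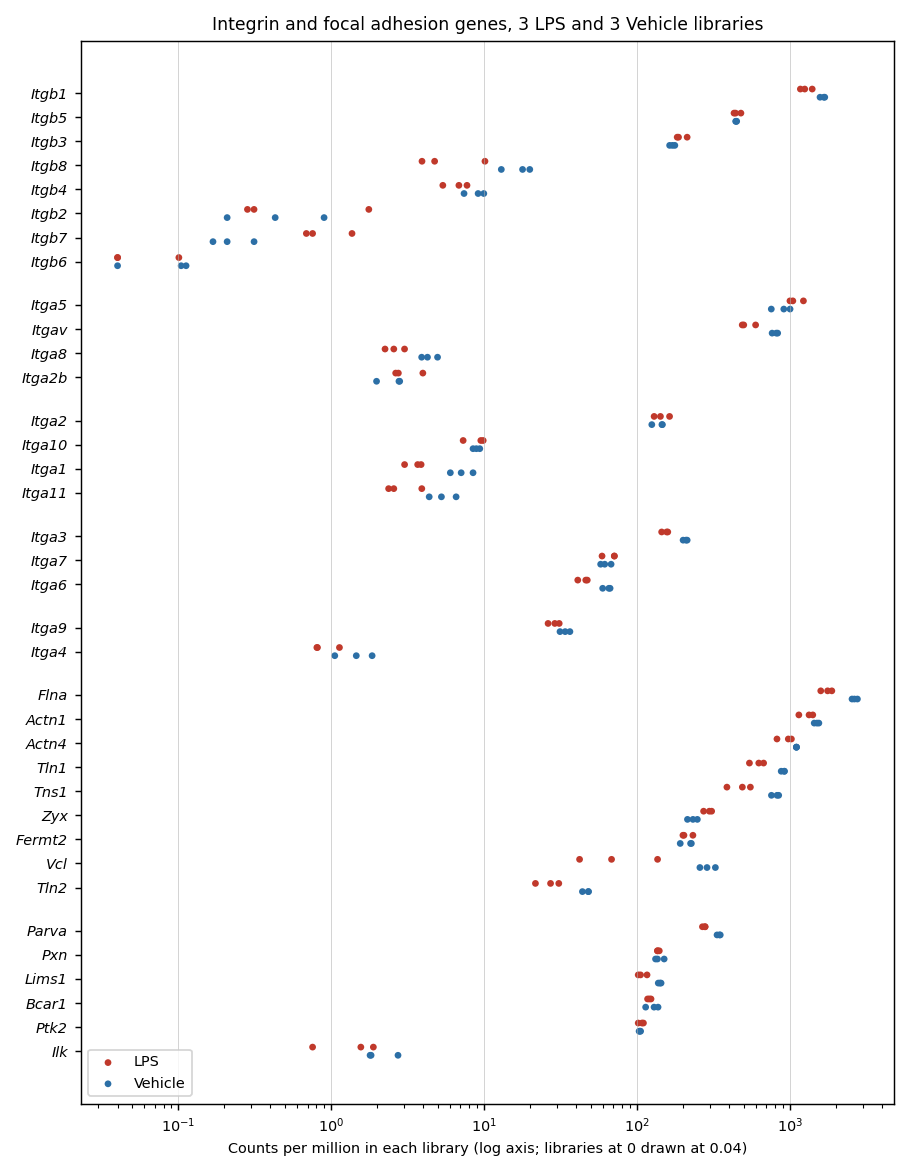
CPM (log axis) of the 36 genes in each of the 3 LPS (red, above) and 3 Vehicle (blue, below) libraries, ordered by role and then by level. LPS points lie clear to the left of Vehicle points for Vcl, Itgb8, Itgav, Flna and Tns1 (of these, Itgav, Flna and Tns1 were not called with the length offset), and Itgb2, Itgb6, Itgb7, Itga4 and Ilk are near or below 3 CPM.

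The beta subunits were dominated by Itgb1, the common partner of most alpha subunits, which was called lower under LPS. Itgb1 (ENSMUSG00000025809, GRCm38 chromosome 8, 128685654 to 128733200) had 1406, 1256 and 1176 CPM in LPS 1, 2 and 3, against 1582, 1699 and 1675 CPM in Vehicle 1, 2 and 3. All 3 LPS values were below all Vehicle values, with LPS 1 nearest to them. LPS over Vehicle gave a log2 fold change of −0.37 (edgeR adjusted p = 0.0130, SE 0.10), and −0.26 with the length offset (adjusted p = 0.0237), a call that held in 1 of the 6 fits that left out 1 library. Without the offset the call was lost without LPS 2 (adjusted p = 0.0624) or without Vehicle 2 (adjusted p = 0.0646).

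Itgb3, the vitronectin and fibrinogen receptor subunit that pairs with Itgav, had 184, 188 and 214 CPM in LPS 1, 2 and 3, against 171, 164 and 177 CPM in Vehicle. The groups did not overlap, but the distance was small. Its log2 fold change of 0.19 (SE 0.09) was not called (edgeR adjusted p = 0.102), but was without LPS 1 (adjusted p = 0.0194). With the length offset Itgb3 was called higher, by 0.63 (adjusted p = 0.00258), also without any 1 of the 6 libraries. Itgb5, another partner of Itgav, had 443, 480 and 433 CPM under LPS and 447, 444 and 450 CPM in Vehicle. Its groups overlapped, with a log2 fold change of 0.02 (edgeR adjusted p = 0.889, SE 0.08) and 0.03 with the offset (adjusted p = 0.804).

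Itgb8, which with Itgav binds latent TGF-beta, showed the largest fall of a beta subunit, at a low level. It had 10.1, 4.75 and 3.93 CPM in LPS 1, 2 and 3, against 19.9, 17.9 and 13.0 CPM in Vehicle 1, 2 and 3. Every LPS value was below every Vehicle value, with LPS 1 nearest to Vehicle. The fitted log2 fold change was −1.41 (SE 0.32, edgeR adjusted p = 0.00557), and −0.79 with the length offset (adjusted p = 0.0248). The offset call held in 2 of the 6 fits that left out 1 library. Itgb4, the laminin receptor subunit of hemidesmosomes, had 7.74, 5.38 and 6.85 CPM under LPS and 9.15, 7.40 and 9.97 CPM in Vehicle. These ranges overlapped and the difference of −0.41 on the log2 scale was not called (edgeR adjusted p = 0.0967), but was without LPS 1 (adjusted p = 0.0228). With the offset it turned to 0.06 (adjusted p = 0.805).

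Itgb7, a subunit known from lymphocytes that home to the gut, was called higher on very few reads. It had 29, 11 and 15 counts in LPS 1, 2 and 3 (1.37, 0.688 and 0.756 CPM), against 3, 4 and 8 counts in Vehicle (0.168, 0.209 and 0.313 CPM). LPS values were all above Vehicle values, and LPS 1 was the highest. It had enough counts to be tested in its LPS libraries alone. The log2 fold change was 1.97 (SE 0.49, edgeR adjusted p = 0.00899), and 1.88 with the offset (adjusted p = 0.0155). The offset call held in 3 of the 6 fits that left out 1 library. Without isolation 1, and without the offset, the log2 fold change was 1.41 and not called (adjusted p = 0.0686). Itgb2, the beta subunit of leukocytes, had 6, 5 and 35 counts under LPS and 16, 4 and 11 in Vehicle. Itgb6, a subunit of epithelia, had 0, 0 and 2 counts under LPS and 2, 2 and 0 in Vehicle, at or under the limit that 3 counts set.

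Of the 4 RGD-binding alpha subunits, Itgav and Itga8 were called lower without the length offset, and neither with it. Itgav, which serves Itgb1, Itgb3, Itgb5 and Itgb8 as partner (ENSMUSG00000027087, chromosome 2, 83724397 to 83806916), had 599, 490 and 501 CPM in LPS 1, 2 and 3, against 818, 835 and 768 CPM in Vehicle. The highest LPS value was below the lowest Vehicle value. Its fold change was −0.61 on the log2 scale (SE 0.10, edgeR adjusted p = 0.00176), and −0.05 with the offset (adjusted p = 0.617). Its longest transcript has 7054 bases.

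Itga5, the fibronectin receptor subunit (ENSMUSG00000000555, chromosome 15, 103344286 to 103366763), was the most abundant alpha subunit per length and was not called lower in either fit. It had 1005, 1050 and 1232 CPM in LPS 1, 2 and 3, against 759, 916 and 1007 CPM in Vehicle 1, 2 and 3. The groups touched, since LPS 1 lay just below Vehicle 3, but within each isolation LPS was the higher. The log2 fold change of 0.29 (SE 0.13) was not called (edgeR adjusted p = 0.0801), whereas a replicate block for the isolation called it (adjusted p = 0.0211). With the length offset it was 0.52 (adjusted p = 0.0111), called in 5 of the 6 fits that left out 1 library. Without the offset, leaving out LPS 1 also made it a call (adjusted p = 0.00939).

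Itga8, a mesenchymal RGD receptor, had 3.02, 2.25 and 2.57 CPM under LPS and 4.27, 3.91 and 4.97 CPM in Vehicle. The groups did not overlap at this low level. A log2 fold change of −0.74 (edgeR adjusted p = 0.0178, SE 0.22) became −0.32 with the offset (adjusted p = 0.281). The call was also lost without LPS 2 (adjusted p = 0.0703) or Vehicle 3 (adjusted p = 0.0755). Itga2b, the platelet subunit, had 2.64, 2.75 and 3.98 CPM under LPS and 2.81, 1.98 and 2.78 CPM in Vehicle, which overlapped (log2 fold change 0.31, edgeR adjusted p = 0.357; 0.35 and 0.341 with the offset). The 6 platelet markers were below 1 CPM in every library.

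The most abundant collagen-binding alpha subunit was Itga2, and it did not separate the groups. Itga2 had 143, 130 and 164 CPM in LPS 1, 2 and 3, against 125, 146 and 147 CPM in Vehicle. Its log2 fold change was 0.06 (SE 0.11, edgeR adjusted p = 0.669). With the length offset it was called higher, by 0.63 (adjusted p = 0.00474), in all 6 fits that left out 1 library too. Its longest transcript has 7108 bases.

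Itga1 (10967 bases, the subunit that with Itgb1 binds collagen IV) had 3.68, 3.88 and 3.02 CPM under LPS, against 8.48, 7.09 and 6.02 CPM in Vehicle. No LPS value reached the lowest Vehicle value. Its fold change was −1.03 on the log2 scale (SE 0.20, edgeR adjusted p = 0.00292), and −0.27 with the offset (adjusted p = 0.288). Itga11, a collagen I receptor of fibroblasts, had 3.92, 2.38 and 2.57 CPM under LPS and 6.57, 5.27 and 4.38 CPM in Vehicle. Groups were apart by little, LPS 1 being close to Vehicle 3. The log2 fold change of −0.85 (edgeR adjusted p = 0.0196, SE 0.25) was −0.54 with the offset (adjusted p = 0.0886). Leaving out LPS 2, LPS 3, Vehicle 1 or Vehicle 2 each ended the call (adjusted p = 0.0769, 0.0514, 0.0852 and 0.0550). With all libraries and an offset for the deposited gene length, Itga11 was still called lower (−0.73, edgeR adjusted p = 0.0338). Itga10, of cartilage, had 9.53, 9.88 and 7.31 CPM under LPS and 8.48, 9.39 and 8.92 CPM in Vehicle, with no separation (log2 fold change −0.0055, adjusted p = 0.980; 0.32 and 0.113 with the offset).

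The laminin-binding subunits Itga3 and Itga6 were lower under LPS and Itga7 was not called. Itga3 had 159, 157 and 145 CPM in LPS 1, 2 and 3, against 201, 210 and 214 CPM in Vehicle, and the groups were well apart. A log2 fold change of −0.44 (edgeR adjusted p = 0.00240, SE 0.08) became −0.14 with the offset (adjusted p = 0.163). With an offset for the deposited gene length instead, Itga3 was still called lower (−0.25, edgeR adjusted p = 0.0179).

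Itga6 had 46.4, 41.1 and 47.4 CPM under LPS, against 59.8, 65.6 and 66.9 CPM in Vehicle. The 3 LPS values lay together below Vehicle. On the log2 scale the fold change was −0.51 (SE 0.10, edgeR adjusted p = 0.00258), and −0.31 with the transcript length offset (adjusted p = 0.0227), which was called in 3 of the 6 fits that left out 1 library. With an offset for the deposited gene length instead, it was −0.09 and not called (adjusted p = 0.524). Itga7, the subunit of muscle, had 59.2, 71.2 and 71.3 CPM under LPS and 58.0, 61.7 and 67.9 CPM in Vehicle. The groups overlapped (log2 fold change 0.10, edgeR adjusted p = 0.442); with the offset it was 0.25 (adjusted p = 0.0965), and the replicate block with the offset called it (adjusted p = 0.0259).

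The related subunits Itga4 and Itga9, which bind Vcam1, fibronectin or tenascin C, were not called. Itga9 had 31.1, 26.3 and 29.1 CPM under LPS and 36.5, 31.4 and 34.0 CPM in Vehicle. Its highest LPS value was only just below its lowest Vehicle value. That log2 fold change of −0.24 (edgeR adjusted p = 0.0949, SE 0.11) turned to 0.32 with the offset (adjusted p = 0.0346). The offset call held in 1 of the 6 fits that left out 1 library. With an offset for the deposited gene length instead, it was 0.10 and not called (edgeR adjusted p = 0.433). Without an offset, Itga9 was called lower when LPS 1 was left out (adjusted p = 0.0216). Itga4 had 24, 13 and 16 counts under LPS and 33, 28 and 27 counts in Vehicle (log2 fold change −0.64, adjusted p = 0.161; 0.06 and 0.907 with the offset).

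**Figure D2:**
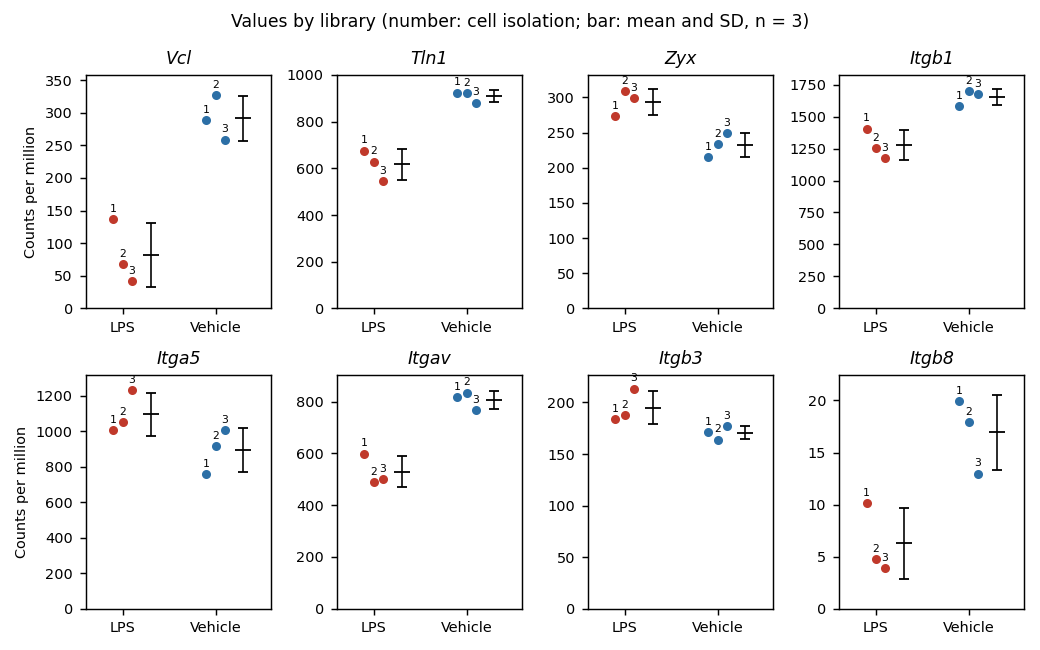
CPM by library for 8 of the genes, LPS left and Vehicle right, with the isolation number at each point and the mean and SD (n = 3) beside it. For Vcl and Itgb8 the LPS values spread with LPS 1 highest (137 and 10.1 CPM), while for Zyx and Itga5 LPS was higher than Vehicle within each isolation; Tln1 and Itgav were called lower without the length offset alone.

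Among the proteins that tie integrins to actin, vinculin stood out. Vcl (ENSMUSG00000021823, chromosome 14, 20929398 to 21033676) encodes the protein that binds talin under tension and reinforces its link to actin. It had 137, 68.4 and 42.2 CPM in LPS 1, 2 and 3, against 288, 327 and 259 CPM in Vehicle 1, 2 and 3. Even the highest LPS value, in isolation 1, was far below the lowest Vehicle value, and the LPS libraries differed among themselves more than the Vehicle libraries did. The means were 82.4 ± 48.8 CPM under LPS and 291 ± 34.1 CPM in Vehicle (SD, n = 3 each).

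For Vcl the log2 fold change was −1.82 (SE 0.34, edgeR adjusted p = 0.00240), the largest fall of the 34 genes, and −1.49 with the length offset (SE 0.27, adjusted p = 0.00294). It was called in all 6 fits that left out 1 library, from −2.41 without LPS 1 to −1.50 without LPS 3, and in all 6 with the offset (−1.97 to −1.20). Leaving out isolation 2 gave −1.61, which edgeR with 2 libraries a group did not call (adjusted p = 0.0688), as it called none of the 34. Of the exon bases of Vcl, 25.5% are shared with Ap3m1 on the opposite strand, whose reads cannot be told apart there without a known strand setting. Ap3m1 itself had 108, 97.1 and 89.8 CPM under LPS and 140, 133 and 128 CPM in Vehicle, a log2 fold change of −0.45 (edgeR adjusted p = 0.00381), which turned to 0.09 with the offset (adjusted p = 0.353).

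Tln1, the main talin, had 676, 629 and 546 CPM in LPS 1, 2 and 3, against 925, 924 and 881 CPM in Vehicle. The groups were apart, with LPS 3 lowest. A log2 fold change of −0.56 (edgeR adjusted p = 0.00214, SE 0.10) turned to 0.09 with the offset (adjusted p = 0.387). Tln2, the second talin, with the longest transcript of all the tested members (12132 bases), had 30.9, 27.3 and 21.7 CPM under LPS and 48.3, 48.2 and 44.1 CPM in Vehicle. Its groups too did not overlap, with a fold change of −0.81 on the log2 scale (SE 0.13, edgeR adjusted p = 0.00158) and −0.04 with the offset (adjusted p = 0.766).

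Flna, the actin cross-linker filamin A and the gene of this set with the most counts, had 1890, 1773 and 1599 CPM under LPS, against 2657, 2778 and 2562 CPM in Vehicle. The ranges lay well apart. A log2 fold change of −0.60 (edgeR adjusted p = 0.00170, SE 0.10) turned to 0.05 with the offset (adjusted p = 0.645). Tns1, a tensin of fibrillar adhesions, had 554, 491 and 389 CPM under LPS and 828, 848 and 761 CPM in Vehicle. LPS was lower in each isolation; the fitted log2 fold change was −0.77 (SE 0.13, edgeR adjusted p = 0.00171), or −0.05 with the offset (adjusted p = 0.662).

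The alpha-actinins, which cross-link actin at adhesions, were not called. Actn1 had 1418, 1341 and 1150 CPM in LPS 1, 2 and 3, against 1449, 1509 and 1554 CPM in Vehicle (log2 fold change −0.21, edgeR adjusted p = 0.124). Actn4 had 1027, 981 and 827 CPM under LPS and 1107, 1110 and 1107 CPM in Vehicle (−0.23, adjusted p = 0.0888). For both, LPS values lay below Vehicle values, and both were called lower without LPS 1 (adjusted p = 0.00903 and 0.00525), the LPS library nearest to Vehicle. With the offset the differences were −0.12 and −0.11 (adjusted p = 0.297 and 0.302). Fermt2, the kindlin of these cells, had 233, 204 and 200 CPM under LPS and 192, 228 and 225 CPM in Vehicle. These overlapped throughout (log2 fold change −0.02, adjusted p = 0.898; −0.0069 and 0.961 with the offset).

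Zyx was the only one of the focal adhesion genes called higher without a length offset; with the offset for transcript length Ptk2 was called higher as well. It encodes zyxin, which gathers at strained actin fibres and recruits actin polymerisation factors. Zyx had 274, 309 and 298 CPM in LPS 1, 2 and 3, against 215, 233 and 249 CPM in Vehicle. Every LPS value exceeded every Vehicle value, and LPS was the higher in each isolation. Zyx differed by 0.34 on the log2 scale (SE 0.09, edgeR adjusted p = 0.0132) and nearly the same with the offset, 0.33 (adjusted p = 0.0103). Without the offset, leaving out LPS 2, Vehicle 1 or Vehicle 2 ended the call (adjusted p = 0.0668, 0.0722 and 0.0592). The offset call held in 3 of the 6 fits that left out 1 library.

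**Figure D3:**
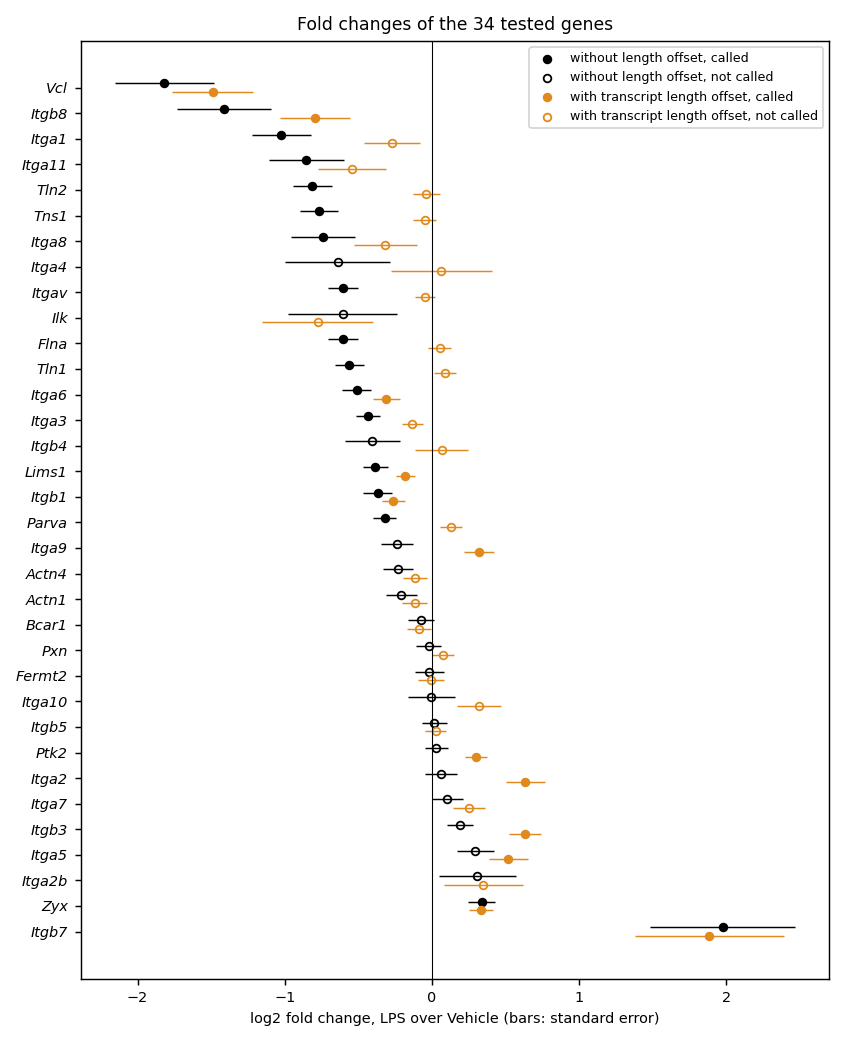
Log2 fold change, LPS over Vehicle, of the 34 tested genes with standard errors, without (black) and with (orange) the transcript length offset; filled points were called at adjusted p below 0.05. The offset moves most long genes towards or past 0 (Flna, Tln1, Parva, Itga9, Itgb4, Itga4, Itga10 and Pxn change sign), whereas Vcl stays at −1.49 and Zyx at 0.33.

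Among kinases and adaptors, Lims1 and Parva were called lower and the remaining 4 were not. Lims1 encodes PINCH-1, which with integrin-linked kinase and parvin forms the complex that bears their names. It had 117, 106 and 102 CPM in LPS 1, 2 and 3, against 142, 144 and 138 CPM in Vehicle. The groups were apart, with a log2 fold change of −0.39 (edgeR adjusted p = 0.00468, SE 0.08) and −0.18 with the offset (adjusted p = 0.0499, called in 1 of the 6 fits that left out 1 library).

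Parva, alpha-parvin, had 280, 280 and 269 CPM under LPS and 348, 352 and 335 CPM in Vehicle. The replicates were close to each other within both groups, and the groups did not overlap. The log2 fold change of −0.32 (edgeR adjusted p = 0.00826, SE 0.08) turned to 0.13 with the offset (adjusted p = 0.219). Ilk, the third of that complex, had only 40, 25 and 15 counts under LPS and 32, 35 and 70 counts in Vehicle. Of its exon bases, 89.7% are shared with Taf10 and Rrp8 on the opposite strand, whose reads cannot be told apart there without a known strand setting, so these counts may not give the level of the gene. The values overlapped and were not called (log2 fold change −0.61, adjusted p = 0.200; −0.78 and 0.132 with the offset).

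Ptk2, focal adhesion kinase, had 108, 111 and 102 CPM in LPS 1, 2 and 3, against 104, 106 and 105 CPM in Vehicle. Its values overlapped (log2 fold change 0.03, SE 0.08, edgeR adjusted p = 0.778), and with the offset it was called higher, by 0.30 (adjusted p = 0.00908, in 4 of the 6 fits that left out 1 library). Pxn, paxillin, had 140, 136 and 137 CPM under LPS and 137, 133 and 151 CPM in Vehicle. Bcar1, the scaffold p130Cas, had 121, 124 and 118 CPM under LPS and 114, 130 and 138 CPM in Vehicle. Both overlapped, with log2 fold changes of −0.02 and −0.08 (adjusted p = 0.834 and 0.519), and 0.07 and −0.09 with the transcript length offset (adjusted p = 0.484 and 0.413). With an offset for the deposited gene length, Pxn was called higher, by 0.35 (adjusted p = 0.0110).

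Longer genes tended to have lower fold changes. Over the 34 genes, the log2 fold change and the log2 length had a Pearson r of −0.55 and a Spearman rho of −0.60, and over all 14508 genes −0.47 and −0.57; genes share the 6 libraries, so these describe the libraries. When all genes were cut into 10 bins of equal number by length, the longest bin held 10 of the 34 genes, showed a median of −0.68 on the log2 scale and had 72.2% of its genes called lower. Within it Tln2, Tns1, Itga4, Itgav, Flna and Tln1 lay between its quartiles (−0.93 and −0.39), Itgb8 and Itga1 below them, and Itga9 and Itga2 above. Vcl, of 5267 bases, was in the bin below it, whose median was −0.43, and Zyx, of 3188 bases, was in a bin with a median of 0.09.

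**Figure D4:**
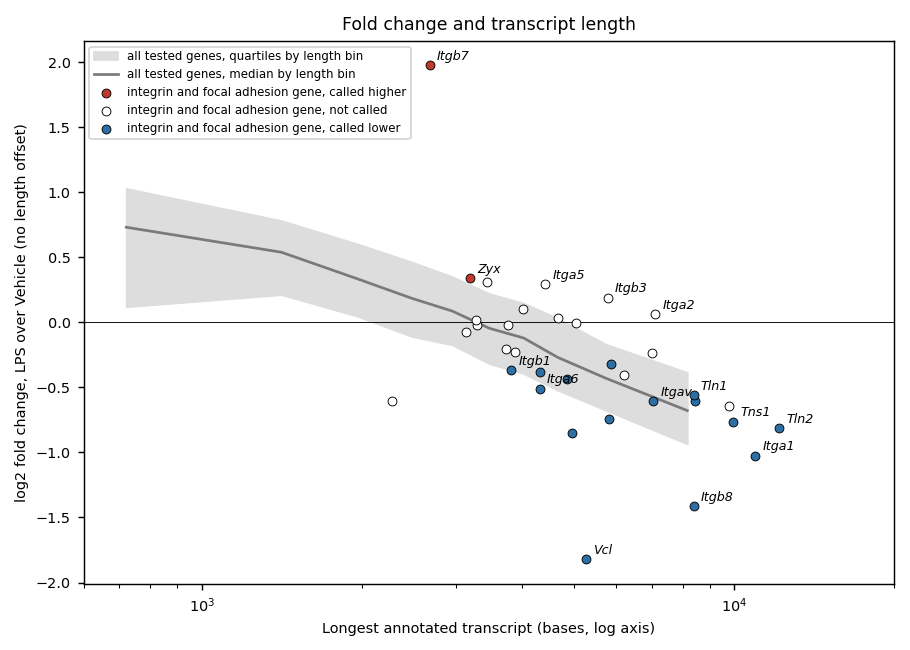
Log2 fold change, LPS over Vehicle without a length offset, of the 34 tested genes against the length of the longest annotated transcript (log axis), over the median and quartiles of all tested genes in 10 length bins. The grey median goes from 0.73 in the shortest bin to −0.68 in the longest; Vcl, Itgb8, Itga1, Itga11, Itga8, Itga6 and Ilk lie below the quartiles of their bins, and Itgb7, Itgb3, Itga2, Itga5, Itga9, Itga2b and Ptk2 above.

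The 3 isolations differed in size more than in direction. LPS was below Vehicle in all 3 isolations for 20 of the 34 genes and above it in all 3 for 5 (Itga5, Itga7, Itgb3, Itgb7 and Zyx). Counts by isolation were not made over all genes, so those given here are not set apart from the whole table. Over the 15 genes called lower, the median log2 ratio of LPS to Vehicle was −0.49 in isolation 1, −0.77 in isolation 2 and −0.69 in isolation 3, and 14 of the 15 had their smallest difference in isolation 1. For Vcl these ratios were −1.08, −2.26 and −2.62. LPS 1 was also the LPS library whose values depended least on length (−0.193 per doubling).

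Without LPS 1, 4 of the genes were called higher and 19 lower (29.5% and 30.2% of all genes), the added ones being Itga5 and Itgb3 as higher and Actn1, Actn4, Itgb4 and Itga9 as lower. Without both libraries of isolation 1, 2 were higher (Zyx and Itgb3) and 19 lower (27.9% and 28.5% of all genes), with Itgb4, Actn1, Actn4 and Ilk added as lower. Without isolation 2, edgeR with 2 libraries a group called 0 of the 34 genes, and 8 genes higher and 0 lower in the whole table (0.0542% and 0.0%); at an unadjusted p below 0.05 there were 1 higher and 12 lower of the 34, and 2587 higher and 2469 lower of all genes. As so few genes of the whole table were called, the lost calls say little about single genes, and fold changes of several were about as large as with all libraries (−0.58 for Flna, −0.56 for Tln1 and −0.75 for Tns1 on the log2 scale). DESeq2 on the same 4 libraries gave an adjusted p for 12473 genes, which did not include all of the 34. It called 0 higher and 7 lower of the 34 (12.4% and 10.1% of the 12473 genes), Vcl not among them. With a replicate block, edgeR on those libraries called 1 higher and 10 lower (15.7% and 15.6% of all genes), Vcl among them. Leaving out isolation 3 ended the calls of Itgb1, Itga8 and Parva (adjusted p = 0.0949, 0.130 and 0.0521).

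**Figure D5:**
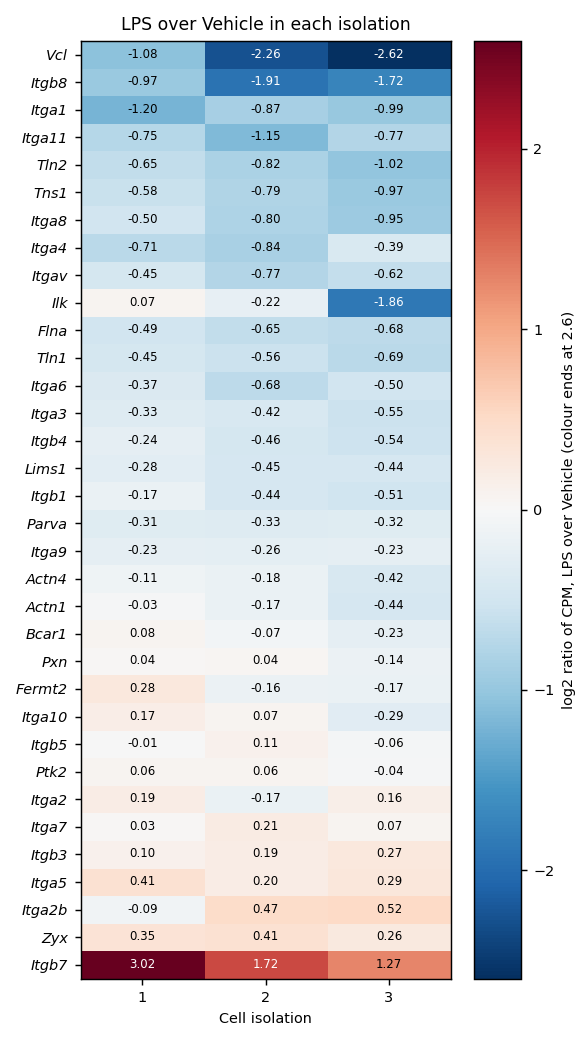
Log2 ratio of CPM, LPS over Vehicle, of the 34 tested genes in each cell isolation, in the order of the fitted log2 fold change (no length offset). Vcl has −1.08, −2.26 and −2.62 in isolations 1, 2 and 3, most genes of the upper part are paler in isolation 1, and Zyx is above 0 in all 3; Itgb7 in isolation 1, at 3.02, is past the end of the colour scale.

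Levels can be set beside each other between genes when divided by transcript length. Per kilobase of the longest transcript, Itgb1 had 335 ± 30.5 CPM under LPS and 433 ± 16.2 CPM in Vehicle (SD, n = 3 each), and Itga5, the most abundant alpha subunit, 248 ± 27.1 CPM under LPS and 203 ± 28.4 CPM in Vehicle. Itgav followed with 75.1 ± 8.52 CPM per kilobase under LPS and 114 ± 4.93 CPM in Vehicle. Of the summed alpha subunits on that scale, Itga5 made up 60.3% ± 3.25 under LPS and 48.1% ± 3.42 in Vehicle, and Itgav 18.4% ± 2.61 under LPS and 27.4% ± 2.76 in Vehicle. Itga3, Itga2, Itga7 and Itga6 came next in Vehicle, with 10.2%, 4.67%, 3.71% and 3.55%. The ranges over libraries did not overlap for Itga5 or Itgav. These shares carry no length offset, and dividing by length does not take out the trend with length in the LPS libraries. With the offset, the log2 fold change of Itgav was −0.05 and not called, and that of Itga5 was 0.52 and called higher.

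Of the summed beta subunits, Itgb1 made up 65.8% ± 2.32 under LPS and 71.9% ± 0.89 in Vehicle, Itgb5 27.1% ± 1.85 under LPS and 22.6% ± 0.61 in Vehicle, and Itgb3 6.65% ± 0.93 under LPS and 4.91% ± 0.24 in Vehicle. The remaining 5 beta subunits were each below 1%. As a ratio of counts, Itga5 to Itgav was 1.68, 2.14 and 2.46 in LPS 1, 2 and 3, against 0.928, 1.10 and 1.31 in Vehicle 1, 2 and 3. With the length offset, the difference between their log2 fold changes was 0.57. Counts of Vcl per count of Tln1, its binding partner, were 0.202, 0.109 and 0.0773 under LPS, against 0.312, 0.354 and 0.294 in Vehicle. Except where given, the shares and ratios carry no length offset. These ratios rest on genes chosen with their values known and carry no test.

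Other genes of the same structures were counted from 5 lists, in which Parvg, Fermt1, Actn2 and Vtn had too few counts to be tested. Of 16 tested paralogs of the focal adhesion proteins, 0 were called higher and 5 lower (2 and 1 with the offset). These are 0.0% and 31.2% (12.5% and 6.25% with the offset), against 24.9% and 24.4% of all genes (21.8% and 13.8% with the offset), shares that apply to each list here. Their median log2 fold change was −0.04. Flnc, the muscle filamin, had 293, 297 and 258 CPM in LPS 1, 2 and 3, against 381, 422 and 428 CPM in Vehicle. This difference of −0.54 on the log2 scale (edgeR adjusted p = 0.00193) turned to 0.15 with the offset (adjusted p = 0.273). Nedd9, a relative of Bcar1, was called lower in both fits (−0.58, adjusted p = 0.00468, and −0.29, adjusted p = 0.0299), and Tgfb1i1, the paxillin relative Hic-5, was not called (−0.04, adjusted p = 0.718; 0.06 and 0.502 with the offset).

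LIM and adaptor genes of adhesions had 5 higher and 10 lower of 20 tested (5 and 4 with the offset) and a median of −0.22. The shares, 25% higher and 50% lower, were 25% and 20% with the offset, against 21.8% and 13.8% of all genes. Lpp, a relative of zyxin, had 362, 300 and 275 CPM under LPS and 679, 731 and 578 CPM in Vehicle, a log2 difference of −1.09 (edgeR adjusted p = 0.00114) and −0.25 with the offset (adjusted p = 0.0161). Pdlim1, which binds alpha-actinin, had 75.5, 92.3 and 107 CPM under LPS and 46.6, 54.3 and 55.0 CPM in Vehicle, a log2 difference of 0.82 (edgeR adjusted p = 0.00156) and 0.75 (adjusted p = 0.00190). Crk, an adaptor of p130Cas, was not called (−0.19, adjusted p = 0.0805; 0.01 and 0.920 with the offset; called in 1 of the 6 fits that left out 1 library).

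Kinases, phosphatases and GTPase regulators had 3 higher and 12 lower of 25 tested (9 and 3 with the offset), with a median of −0.22. That is 12.0% and 48.0% (36.0% and 12.0% with the offset). Dock1, a Rac activator downstream of p130Cas, had 55.0, 40.4 and 38.6 CPM in LPS 1, 2 and 3, against 86.7, 82.7 and 81.3 CPM in Vehicle, a log2 difference of −0.90 (edgeR adjusted p = 0.00144) and −0.38 with the offset (adjusted p = 0.00671). Arhgef6, a Rac and Cdc42 exchange factor, was called lower at a low level (−1.08, adjusted p = 0.00649, and −0.84 with the offset, adjusted p = 0.0180). Arhgap35, p190RhoGAP, was called lower (−0.78, adjusted p = 0.00150), but not with the offset (−0.10, adjusted p = 0.278). Cdc42 was not called (0.08, adjusted p = 0.454), nor with the offset (−0.14, adjusted p = 0.177).

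Regulators of integrin activity had 10 higher and 3 lower of 18 tested (7 and 2 with the offset), with a median of 0.39; their median longest transcript is 2602 bases. Their shares were 55.6% and 16.7%, and 38.9% and 11.1% with the offset, against 24.9% and 24.4%, and 21.8% and 13.8%, of all genes. Plaur, the urokinase receptor, had 138, 160 and 206 CPM in LPS 1, 2 and 3, against 68.6, 89.0 and 106 CPM in Vehicle, a log2 difference of 0.93 (edgeR adjusted p = 0.00271) and 0.68 with the offset (adjusted p = 0.00670). Rack1, a scaffold that is also part of the ribosome, was higher by 0.88 (adjusted p = 0.00160) and 1.12 (adjusted p = 0.00135). Cib1, which binds the tail of Itga2b, was higher by 0.75 (adjusted p = 0.00285), but not called with the offset (0.29, adjusted p = 0.0563). The tetraspanin Cd81 was not called (−0.06, adjusted p = 0.598) except as lower with the offset (−0.40, adjusted p = 0.00763).

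Ligands of integrins had 6 higher and 14 lower of 26 tested (5 and 5 with the offset), with a median of −0.37 and a median longest transcript of 5806.5 bases. They made up 23.1% and 53.8%, and 19.2% each with the offset, against 24.9% and 24.4%, and 21.8% and 13.8%, of all genes. Spp1, osteopontin, an RGD ligand, had 2826, 3389 and 5092 CPM in LPS 1, 2 and 3, against 1554, 1276 and 1457 CPM in Vehicle, a log2 difference of 1.40 (edgeR adjusted p = 0.00144) and 1.01 with the offset (adjusted p = 0.00153). Nid1, nidogen of the basement membrane, was called lower (−1.04, adjusted p = 0.00150, and −0.59 with the offset, adjusted p = 0.00272). Lama2, a laminin chain, was called lower (−1.02, adjusted p = 0.00288), but not with the offset (−0.34, adjusted p = 0.130). Thbs1, thrombospondin 1, was not called (−0.37, adjusted p = 0.0633; 0.06 and 0.718 with the offset; called in 1 of the 6 fits that left out 1 library). Fn1, fibronectin and the ligand of Itga5, picked here after its values were seen, had 12026, 9459 and 8311 CPM under LPS and 19968, 19014 and 17198 CPM in Vehicle, a log2 difference of −0.92 (edgeR adjusted p = 0.00161) and −0.28 with the offset (adjusted p = 0.0300).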

How the data were processed

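Bulk RNA was sequenced from 3 LPS and 3 Vehicle cultures of 3 cell isolations. HISAT2 was the aligner and GRCm38 (mm10) the genome, per the submitters' processing notes; how reads were counted, with which strand setting and annotation release, is not given in the sources used here. Deposited by the authors were raw counts, 1 column per library, and a length for each gene, per the file headers. Columns named by isolation alone were taken as Vehicle by elimination. All 36 genes were matched by name.

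From the counts, edgeR 4.0.16 in R 4.3.3 (TMM, filterByExpr by group, 2-sided quasi-likelihood F-test) tested 14508 genes, with Benjamini-Hochberg adjustment over all of them and calls at 0.05. The SE is that of the fitted log2 fold change, and the SD is between the libraries of a group. CPM used TMM-scaled library sizes. After the data were seen, a length offset was used: a natural spline with 5 degrees of freedom per library over log2 length, taking the longest transcript in GENCODE M21, which may not be the expressed one.

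The labels give each number as 1 isolation shared by an LPS and a Vehicle culture, which pairs the libraries; the correlation across genes of the deviations within a pair was 0.0958, −0.0450 and 0.206. The fit without the pairing is the one reported. Other settings were no filter, a filter of at least 1 CPM in 3 libraries, scaling by DESeq2 size factors or by library sizes alone, the tests of DESeq2 1.42.0 and of limma 3.58.1 (voom), the replicate block, offsets for transcript or deposited gene length, a threshold of 0.01, and leaving out each library and each isolation. The edgeR test was tested on simulated data.

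The genes, lists, tests and alternatives were chosen with earlier results of these data known. All 36 genes are named; of each list, the 3 called genes with the largest absolute log2 fold change and the most abundant gene without a call are named. Some list genes that this takes in are left out of the text, though counted in their lists.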

Additional observations from a re-analysis of the deposited data

How the results depend on the processing

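Of the genes called lower (15) and higher (2), all kept their direction and call with DESeq2 size factors, library sizes alone, DESeq2 and limma-voom. Without a filter Itga5 was added as higher. The stricter filter, which removed Itgb7, called 1 higher (Zyx). A threshold of 0.01 called 1 higher (Itgb7, on its few counts, but not Zyx) and 12 lower. The replicate block, which follows the pairing by isolation, called 3 higher and 15 lower, adding Itga5, and changed no other call of these genes. The transcript length offset called 7 higher and 5 lower, the deposited gene length offset 8 higher and 6 lower, and the replicate block with the transcript length offset 8 higher and 5 lower. Leaving out libraries or isolations gave 0 to 4 higher and 0 to 19 lower. Without isolation 2, settings chosen after seeing the data gave 0 higher and 7 lower with DESeq2, and 1 higher and 10 lower with the replicate block.

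With the transcript length offset, log2 fold changes of genes called without or with it turned to 0.052 for Flna, 0.088 for Tln1, 0.13 for Parva, 0.32 for Itga9 and 0.15 for Flnc; with the replicate block as well, to 0.050, 0.087, 0.12, 0.32 and 0.15. Of the genes called in neither fit, Itgb4, Itga4, Itga10 and Pxn turned to 0.065, 0.062, 0.32 and 0.072 with the transcript length offset. With the deposited gene length offset, Parva turned to 0.16 and Pxn to 0.35. Ranges over fits that left out libraries or isolations pool fits with and without the transcript length offset. They were −0.67 to 0.096 for Flna, −0.64 to 0.12 for Tln1, −0.34 to 0.19 for Parva and −0.30 to 0.36 for Itga9. For Pxn the range was −0.067 to 0.14, for Tln2 −0.94 to 0.020 and for Tns1 −0.89 to 0.014. Leaving out 1 library gave Flna −0.66 to −0.54 without the offset and 0.0060 to 0.096 with it. For Tln1 these were −0.64 to −0.48 and 0.035 to 0.12, and for Parva −0.34 to −0.30 and 0.095 to 0.19. The cause was not tested. The longest transcript may not be the expressed one, so the size of the offset is uncertain for single genes. With 3 libraries a group and few counts, changes of Itga4, Itga2b, Itgb2 and Itgb6 were not detectable at this depth unless large. The same holds for Ilk, whose counts may also not give the level of the gene, given its shared exons.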

Other observations

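Integrin genes outside the naming rule, chosen after their values were seen, were near the limit of detection except for Itgbl1. The leukocyte subunits Itgal and Itgam each had 0, 0 and 2 counts in LPS 1, 2 and 3 and 0 counts in every Vehicle library. Itgax had 0, 1 and 2 counts under LPS and 0 in Vehicle, Itgad 2, 1 and 0 counts under LPS and 1, 3 and 6 in Vehicle, and Itgae 3 counts in each LPS library and 1, 2 and 7 in Vehicle. Itgbl1, a secreted relative of the beta subunits, had 89.6, 83.8 and 75.9 CPM under LPS and 95.2, 93.1 and 89.4 CPM in Vehicle, a log2 fold change of −0.16 that was not called (edgeR adjusted p = 0.176; −0.0025 and 0.984 with the offset).

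Of the more abundant genes that share exons with focal adhesion genes on the opposite strand, Taf10, Rrp8 and Creb3 were called higher, while Ap3m1, beside Vcl, was called lower without the length offset alone. The limit given above for reads in the shared exons of Ilk and Vcl applies to these genes too. Taf10, which shares 76.7% of the exon bases of Ilk, had 82.0, 111 and 129 CPM in LPS 1, 2 and 3, against 54.5, 50.3 and 59.2 CPM in Vehicle, a log2 fold change of 0.97 (edgeR adjusted p = 0.00149) and 1.18 with the offset (adjusted p = 0.00135). Rrp8, which shares 12.9% of them, had a log2 fold change of 0.41 (edgeR adjusted p = 0.00735) and 0.38 with the offset (adjusted p = 0.00835). Creb3, which shares 3.67% of the exon bases of Tln1, had 83.7, 100 and 100 CPM under LPS and 61.6, 61.8 and 62.6 CPM in Vehicle, a log2 fold change of 0.61 (edgeR adjusted p = 0.00148) and 0.33 with the offset (adjusted p = 0.00567).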
